A study of Mus musculus with 19 samples.

Results

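The genomic distribution of 5-hydroxymethylcytosine (5hmC) in knockout (KO) cells was set against that in wild-type (WT) cells on day 10, the last day sampled of a conversion towards induced pluripotent stem cells. Libraries were chosen by their titles alone: KO1 and KO2 of day 10 (D10) against WT A, B and C of D10, which makes 5 of the 19 samples of the series. A peak list came with 18 of those samples. All deposited peaks on chromosomes 1 to 19 were used, both KO lines are given separately, and chromosome 5 is treated apart.

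5hmC is made when TET dioxygenases oxidise 5-methylcytosine, and it is both a step of active DNA demethylation and a mark found at enhancers and in the bodies of active genes. Its distribution differs between cell types, so that it is redrawn when a somatic cell is reprogrammed. Pre-iPSCs are fibroblast-derived cells that have stopped partway through reprogramming. Ascorbic acid is a cofactor of TET enzymes, and 2i, a GSK3 inhibitor (CHIR-99021) with a MEK inhibitor (PD-0325901), supports naive pluripotency.

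Each of the 5 D10 libraries came from pre-iPSCs of mouse embryonic fibroblast origin kept in LIF-containing serum medium with 50 µg/mL ascorbic acid and 2i. Day 0 (D0) and day 2 (D2) libraries of the same KO lines and WT letters carry the same treatment label, and so do V6.5 mouse embryonic stem cells (mESC) at 0, 12 and 72 hours, with 1 library each. The labels do not name the deleted gene or say that KO1 and KO2 lack the same one, and peak lists of a DNA mark cannot check a deletion. Peak names in the deposited lists hold the words CrisprKO for KO1 and CKO-H for KO2. Each line had 1 library per day, and the labels do not say whether WT A, B and C were separate cultures, and a p-value here reflects only the scatter between libraries, which may be technical. The run names fall into 3 styles, possibly batches: WT B shares its style with KO1, WT C shares its style with KO2, and WT A stands alone. In bulk DNA, fewer cells with the mark at a place and less of it per cell cannot be told apart. Positions are on mm9, counted from 1, and are given without gene names because an mm9 annotation was not used here.

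At the end of conversion the KO lines had more 5hmC peaks than WT cells, and these covered more of the genome. KO1 held 111808 peaks and KO2 111075, against 86096, 77245 and 54997 in WT A, B and C. The peaks covered 51.8 Mb in KO1 and 43.1 Mb in KO2, against 31.6, 28.3 and 17.6 Mb in WT A, B and C. Both KO lists thus lay above all 3 WT lists in number and in coverage. On the log2 scale, peak number differed by 0.64 (KO minus WT, two-sided exact permutation p = 0.2), and covered bp outside chromosome 5 by 0.89 (exact p = 0.1). With 2 libraries against 3 no p can fall below 0.1.

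Broad peaks set KO1 apart among the D10 libraries. Peaks of 2 kb or more numbered 264 in KO1 and 47 in KO2, against 23, 36 and 10 in WT A, B and C. As a share of each list they were 0.236% in KO1 and 0.0423% in KO2, against 0.0267, 0.0466 and 0.0182% in WT A, B and C. By this share KO2 lay within the range of the WT libraries. On the earlier days KO1 had 0.204% at D0 and 0.296% at D2. WT B, of the same run-name style, had 0.235% at D0 and 0.143% at D2. Such a share was thus limited neither to D10 nor to KO1. Median peak width was 380 bp in KO1 and 328 bp in KO2, against 319, 316 and 278 bp in WT. Sequencing depth, read from the steps of the authors' fold values relative to the shared input, was 1.47 in KO1 and 1.16 in KO2, against 1.37, 1.64 and 1.03 in WT A, B and C. WT C had both the lowest depth and the fewest peaks, and WT B the highest depth. Absolute depth is unknown, and the part of depth in peak number was not tested.

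Merging the peaks of the 5 D10 lists gave 217814 regions outside chromosome 5. Of these, 23288 (10.7%, 13.5 Mb) had a peak in both KO lines and in no WT library, and are called KO-retained below because of their history, given next. Another 10679 (4.9%, 5.66 Mb) had a peak in all 3 WT libraries and in neither KO line, and are called KO-missing. A further 8620 (3.96%) had a peak in all 5 libraries, and these were the longest, with a median of 752 bp against 497 bp for KO-retained and 474 bp for KO-missing regions. Presence in 2 and 3 libraries gives no p per region. The excess of KO-retained over KO-missing regions depended on the peaks used. When each library gave only its 54997 strongest peaks, there were 9191 KO-retained and 10069 KO-missing regions. With all peaks of -log10 q of at least 5 there were 22288 KO-retained and 6547 KO-missing regions.

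KO-retained regions were places that carried 5hmC in most libraries of either genotype at D2. A D2 peak lay in 88.1% of them in KO1 and 78.8% in KO2, against 84.8 ± 4.28% in WT (SD, n = 3; 79.9 to 87.7%). At D0 the shares were 42.4% in KO1 and 44.7% in KO2, against 51.2 ± 9.49% in WT (SD, n = 3). A peak in every one of the 5 D2 libraries was found at 58% of KO-retained regions, and 120 regions (0.515%) had no peak in any D0 or D2 library. The KO-retained regions, those that both lines shared, thus lay mostly where both genotypes had D2 peaks. They are part of the 103683 regions with a peak in any KO line and no WT library, of which those of a single line are given further on. With KO1 left out, regions with a peak in KO2 and no WT library had one in 51.7% of cases, and with KO2 left out, those of KO1 had one in 62.8%. The D0, D2 and mESC libraries played no part in choosing these regions.

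In the D2 lists these places ranked well above the middle by the authors' -log10 p. Their median rank percentile was 69.3 in KO1 and 65.9 in KO2 at D2, and 72.1, 71.5 and 66.6 in WT A, B and C at D2. Regions with a peak in all 5 D10 libraries ranked higher still, at 82.6 in KO1 and 80.6 in KO2, and at 85.7, 80.6 and 76.5 in WT. They also had a D2 peak more often, in 96.1% (KO1) and 90% (KO2), against 95 ± 2.78% in WT (SD, n = 3). Frequent and strong D2 peaks were thus not particular to KO-retained regions. The few KO-missing regions that had a D2 peak ranked low, at 28.2 in KO1 and 28.6 in KO2, and at 29.9, 28.5 and 25.9 in WT A, B and C.

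KO-missing regions had the reverse history. At D2 a peak lay in 14.2% of them in KO1 and 5.82% in KO2, against 14.6 ± 7.37% in WT (SD, n = 3; 8.64 to 22.9%). At D0 it was 0.646% in KO1 and 1.69% in KO2, against 1.82 ± 0.794% in WT (SD, n = 3). No D0 or D2 library of either genotype had a peak in 7088 of the 10679 (66.4%), so most of the 5hmC that both KO lines lacked was, in WT cells, seen at D10 alone among the pre-iPSC days. Of the KO-missing regions, 18.5% had a peak in some KO library of D0 or D2.

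Stem cell lists divided the classes along the mESC time course. KO-retained regions had an mESC peak in 12.9% of cases at 0 hours (95% Wilson interval 12.4 to 13.3%), 5.52% at 12 hours (5.23 to 5.82%) and 0.726% at 72 hours (0.625 to 0.843%). KO-missing regions ran the other way, with 7.14% (6.66 to 7.64%), 24.6% (23.8 to 25.4%) and 31.1% (30.2 to 31.9%). Regions with a peak in all 5 libraries had 24.4% at 0 hours, 37.7% at 12 hours and 19% at 72 hours. These intervals cover counting error only, and each mESC time had 1 library. The largest share for KO-retained regions was thus at 0 hours and that for KO-missing regions at 72 hours.

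**Figure D1:**
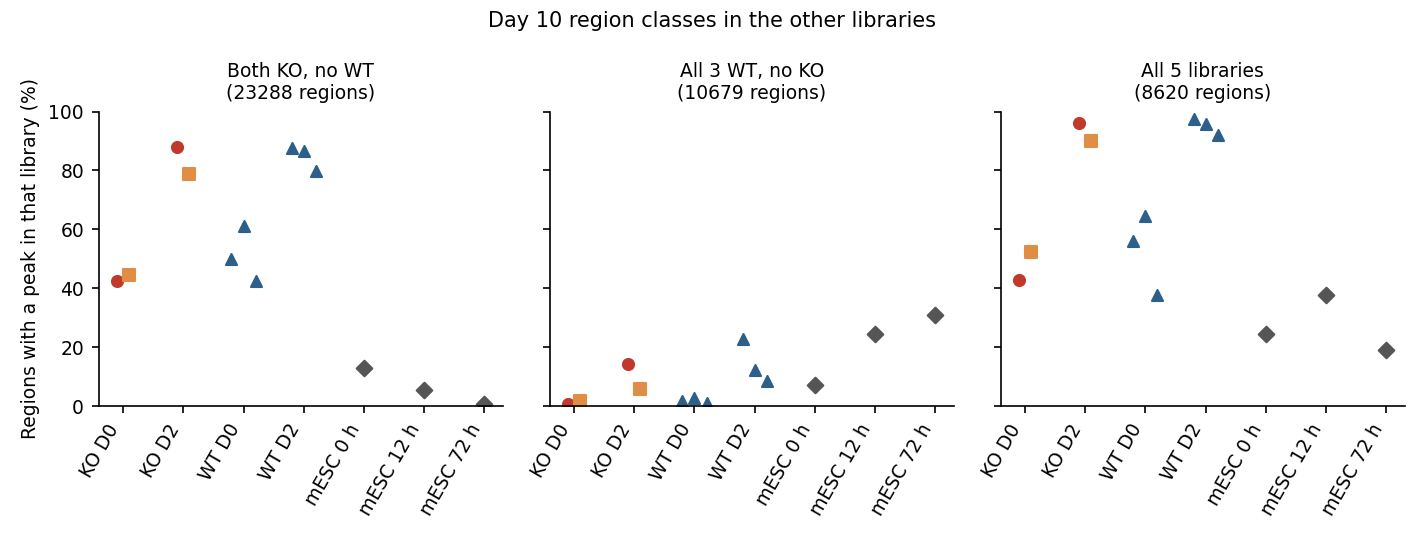
Share of day 10 regions outside chromosome 5 (vertical axis, %) that had a peak in each KO, WT and mESC library of another day or cell type (horizontal axis), for regions with a D10 peak in both KO and no WT library, in all 3 WT and no KO library, and in all 5; each point is 1 library. KO-retained regions reached 78.8 to 88.1% in the 5 D2 libraries, whereas KO-missing regions stayed at or under 22.9% there and reached 31.1% in mESC at 72 hours.

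The longest KO-retained region was 4347 bp on chromosome 18 (73848914 to 73853260). Peaks covered 4019 bp of it in KO1 and 3873 bp in KO2 at D10, with fold enrichments by the authors of 5.52 and 5.74, and no WT library had a D10 peak there. At D2 they covered 4337 bp in KO1 and 2168 bp in KO2, against 4315, 4347 and 4346 bp in WT A, B and C. No library of either genotype had a D0 peak there. Peaks were thus present there at D2 in both genotypes, and at D10 in the KO lists alone.

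The other long KO-retained regions differed in whether the mark was already present at D0. On chromosome 8 (127544372 to 127548059, 3688 bp) D10 peaks covered 3232 bp in KO1 and 2676 bp in KO2 and none in WT, while D0 peaks covered 372 bp in KO1 and none in KO2, against 3338, 3369 and 1530 bp in WT A, B and C. On chromosome 11 (18774102 to 18777372, 3271 bp) they covered 2981 bp in KO1 and 2271 bp in KO2 at D10, and every D0 and D2 library had a peak. On chromosome 2 (156668828 to 156671744, 2917 bp) D10 coverage was 2852 bp in KO1 and 2286 bp in KO2, again with a peak in every D0 and D2 library of both genotypes. The remaining 4 of the 8 longest, on chromosomes 7, 18, 9 and 15, measured 2607 to 2777 bp. None of the 8 had an mESC peak at 0 or 72 hours, and the one on chromosome 8 had 259 bp at 12 hours.

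Among KO-missing regions the longest was 3652 bp on chromosome 11 (115066696 to 115070347). It had no D10 peak in KO1 or KO2, against 2822, 2732 and 1499 bp under peaks in WT A, B and C. Next was a region of 3648 bp on chromosome 2 (76547241 to 76550888), with no KO peak on any day, against 3530, 3465 and 2765 bp in WT A, B and C at D10. All 3 mESC lists had a peak in it, of 515 bp at 0 hours, 785 bp at 12 hours and 1156 bp at 72 hours. On chromosome 12 (36831500 to 36833747) KO lines had no peak on any day, against 1626, 2016 and 1940 bp in WT A, B and C at D10, and the 72 hour mESC list covered 1936 bp. The other 5 lay on chromosomes 19 (25483409 and 53076738), 10 (69452160), 7 (30718613) and 2 (30110617), by their first base. Each of the 8 had a peak in the 72 hour mESC list, which held a peak in 31.1% of all KO-missing regions.

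How many WT D10 regions KO cells also held went with how many WT libraries had marked the region at D2. Of the 26398 regions with a D10 peak in all 3 WT libraries, KO1 had a peak in 37.2% and KO2 in 55%. Where all 3 WT libraries had also had a D2 peak (10666 regions), KO1 had one in 79.2% and KO2 in 88.3%. Where 1 or 2 of the WT libraries had had one (6473 regions), KO1 had a peak in 19.2% and KO2 in 56%. Where no WT library had had a D2 peak (9259 regions), KO1 had one in 1.46% and KO2 in 15.8%. Outside chromosome 5 the share thus fell with each step in both lines, and KO1 was below KO2 throughout. Peak strength at D10 differed as well. By -log10 p, KO-missing regions had median rank percentiles of 59, 68.7 and 56 in WT A, B and C at D10. Regions with a peak in all 5 libraries had 79.8, 77.3 and 66.4. The part of peak strength in these shares was not tested.

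Regions common to a pair of WT libraries gave a reading against the WT library left out. In regions shared by WT B and C, KO1 had a D10 peak in 34.3% and KO2 in 51.4%, against 81.4% in WT A. In those shared by WT A and C the shares were 35.1% in KO1 and 51.9% in KO2, against 81.3% in WT B. In those shared by WT A and B they were 35.1% in KO1 and 50.2% in KO2, against 57.4% in WT C. Both KO lines lay below the WT library each time, by the least against WT C, whose list was the shortest.

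The same question was asked of peaks at equal list length, with the 54997 strongest peaks of each D10 library by the authors' -log10 p. In KO1 83% and in KO2 73% overlapped the WT D2 set, the peaks found in at least 2 of the 3 WT D2 lists, against 47.8, 45 and 41.2% in WT A, B and C. The WT D0 set, made likewise, held 65.7% of KO1 and 36.2% of KO2 peaks, against 20.7, 19.1 and 16.7% in WT A, B and C. The 72 hour mESC list held 3.22% of KO1 and 6.19% of KO2 peaks, against 17.9, 17.9 and 17% in WT A, B and C. The 12 hour list held 10.7% of KO1 and 14.8% of KO2 peaks, against 21.4, 21.6 and 20.7% in WT A, B and C. Both KO lines were above every WT library for the D0 and D2 sets and below every WT library for the 12 and 72 hour lists.

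KO minus WT differences were 33.3 points for the WT D2 set, 32.1 for the WT D0 set, -8.45 for the 12 hour mESC list and -12.9 for the 72 hour list, each with the smallest two-sided exact permutation p possible, 0.1. Within run-name styles the WT D2 shares were 83% in KO1 against 45% in WT B, and 73% in KO2 against 41.2% in WT C. For the 72 hour list they were 3.22% in KO1 against 17.9% in WT B, and 6.19% in KO2 against 17% in WT C. Each of these pairs sets a single KO library against a single WT library. The part of run-name style in the gaps was not tested. At D2 the KO lines had 4.08% (KO1) and 4.74% (KO2) in the 72 hour list, against 3.92, 3.72 and 3.65% in WT A, B and C. The D10 share of KO1 was lower than its D2 share, that of KO2 was 6.19%, and those of all 3 WT libraries were at least 17%.

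The 0 hour mESC list ran the other way, with 14.3% of KO1 and 13.6% of KO2 peaks, against 11.1, 10.5 and 9.48% in WT A, B and C (difference 3.6 points, exact p = 0.1). This difference was 0.985 points with all deposited peaks and 0.658 (exact p = 0.4) when 50% of the peak had to overlap.

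**Figure D2:**
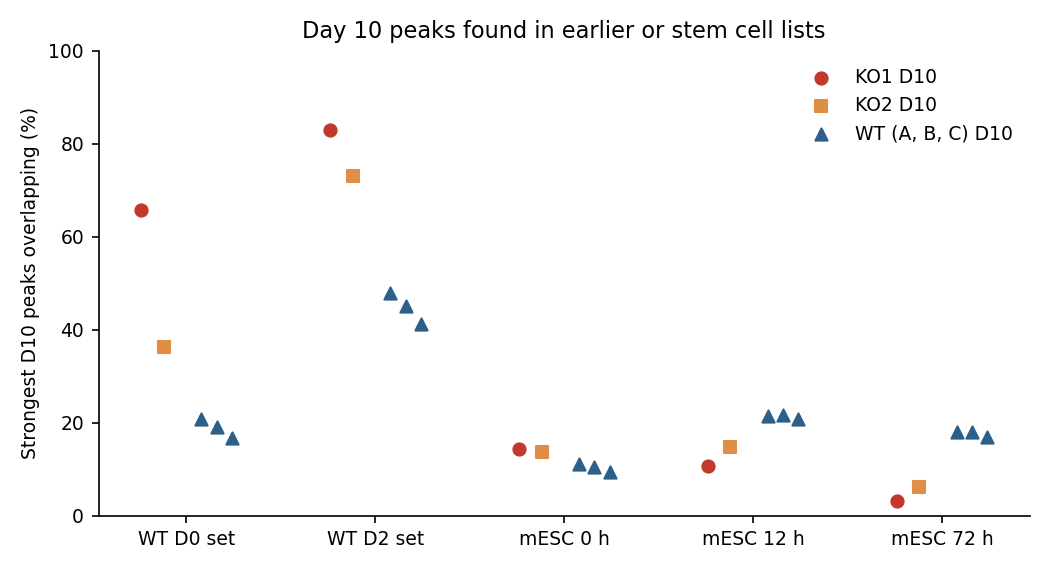
Share of the 54997 strongest D10 peaks of each library (vertical axis, %) that overlap the WT D0 set, the WT D2 set and the mESC lists of 0, 12 and 72 hours (horizontal axis); each point is 1 library. KO1 and KO2 lie above the 3 WT libraries in the D0 and D2 sets (83 and 73% against 41.2 to 47.8% for D2) and below them in the 72 hour list (3.22 and 6.19% against 17 to 17.9%).

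A test with replicate error used the bp under peaks in windows of 10 kb, on a log2(scaled bp + 200) scale that understates changes of sparsely covered windows. Of 25707 windows outside chromosome 5, 5916 (23%) were higher and 1839 (7.15%) lower in KO than in WT at D10 (limma, Benjamini-Hochberg adjusted p under 0.05). The median window was itself higher by 0.54 in KO. Relative to that median, 3262 windows were higher and 3623 lower, so the excess of higher windows turned with the centring. It also turned in a fit of the 5 D10 libraries alone, with 969 higher and 3085 lower. With every window that held a covered bp the split was 6964 higher and 6510 lower, and with no scaling it was 8965 and 345. Groups did not overlap at all in 8983 windows with KO above WT (34.9%) and 4441 with KO below WT (17.3%). Of the 10 ways to assign 2 of 5 libraries to KO, 1 gives such a separation upwards and 1 downwards. The higher median window and the filter bear on both shares.

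Windows that were higher in KO at D10 had a median of 0 in every WT library of that day. Their median at D10 was 1284 scaled bp in KO1 and 917 in KO2, and 0 in each of WT A, B and C, the contrast that chose them. At D2 the medians were 1083 in KO1 and 1086 in KO2, against 1001, 1108 and 1171 in WT A, B and C. Since a window entered only with a mean of at least 500 scaled bp over all 15 pre-iPSC libraries, one at 0 in WT D10 needed coverage at D0 or D2 to be tested, so these D2 levels were set in part by that filter and are given as a description. An mESC peak lay in 36.3% of these windows at 0 hours, 20.5% at 12 hours and 4.85% at 72 hours, beside 39.7, 39.5 and 21.3% of all tested windows.

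In windows that were lower in KO, every D0 and D2 library had a median well under those of WT at D10. At D10 their median was 300 scaled bp in KO1 and 474 in KO2, against 2030, 2293 and 2652 in WT A, B and C, the contrast that chose them. At D2 the medians were 474 in KO1 and 358 in KO2, against 580, 481 and 482 in WT. Some covered bp lay in 77.2% (KO2) to 94.5% (WT A) of these windows at D2. An mESC peak lay in 44.4% of them at 0 hours, 68.2% at 12 hours and 56.8% at 72 hours. Among all tested windows the shares were 39.7, 39.5 and 21.3%. At 0 hours the share was thus above that of the windows higher in KO (36.3%), unlike for the region classes. That WT stood above KO at D10 follows from the choice of these windows. With high WT D10 coverage a window could pass the filter on little coverage at D0 and D2. The earlier levels are therefore given as a description.

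**Figure D3:**
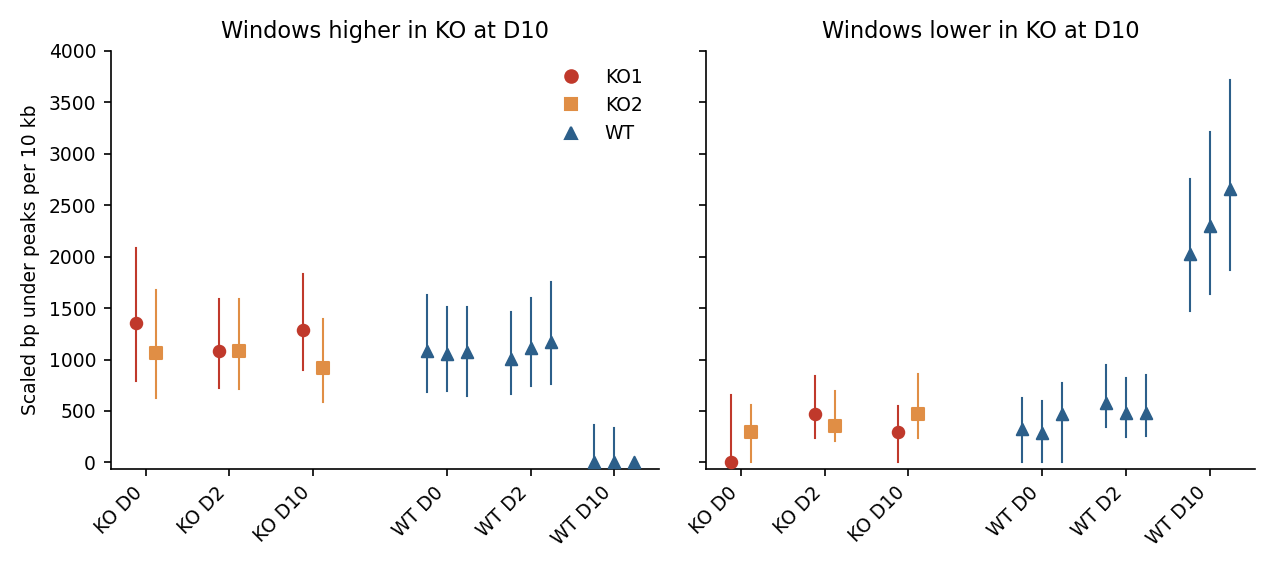
Scaled bp under peaks per 10 kb window (vertical axis) in each KO and WT library by day (horizontal axis), for the 5916 windows higher and the 1839 windows lower in KO at D10; points are medians over windows and lines run between the quartiles. In windows higher in KO the WT D10 medians are 0 while all other libraries lie between 917 and 1350; in windows lower in KO the WT D10 medians of 2030 to 2652 stand above all others.

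Between days, no window passed the test for KO D10 minus KO D2 (79 higher and 120 lower at an unadjusted limma p under 0.05), and none for KO D10 minus WT D2 (300 and 549 at unadjusted p). The KO contrast between days sets 2 libraries against 2, and that of WT 3 against 3, so these counts are not on a par. No other tool was run on these contrasts. For WT D10 minus WT D2, which shares its D2 libraries with KO D10 minus WT D2, 2223 windows were higher (8.65%) and 7952 lower (30.9%). The coverage filter favoured windows covered at D0 or D2 here too, and its part in this split was not tested. At D2, no window passed the same test for KO minus WT (295 higher and 450 lower at unadjusted p). The difference between the D10 and D2 effects of KO was tested directly by an interaction term: it was positive in 2156 windows (8.39%) and negative in 431 (1.68%). All of the 2135 higher and 421 lower D10 windows among these had an interaction of the same sign as their D10 difference. That difference is itself a part of the interaction, so the shared sign was largely set in advance and is given as a description. The coverage filter bears on the split of positive and negative interactions as well, and its part was not tested.

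Of the single windows, the largest difference towards KO was on chromosome 11, 18770001 to 18780000, the window that holds the KO-retained region named above. It had 4540 scaled bp in KO1 and 3423 in KO2 at D10, and was listed at 0 in all 3 WT libraries (limma adjusted p = 9.47e-06). At D2 it had 2795 bp in KO1 and 3864 in KO2, against 2833, 2941 and 3362 in WT A, B and C. The window on chromosome 3, 153330001 to 153340000, was the only one of the 10 with some WT coverage at D10: 4708 bp in KO1 and 4287 in KO2, against 348, 0 and 0 bp in WT A, B and C (log2 difference 4.07, SE 0.38, limma adjusted p = 1.41e-05). Adjacent windows from 114390001 to 114410000 on chromosome 13 both belonged to the 10. The rest, by first base, were on chromosomes 7 (144500001), 6 (52190001), 11 (21900001), 2 (32030001 and 165970001) and 1 (36110001). All 10 had a D2 peak in every KO and WT library, which the filter favours, and none had a peak of the 72 hour mESC list.

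The largest difference towards WT was on chromosome 19, 53070001 to 53080000. KO1 and KO2 were listed at 0 at D10, against 4728, 6663 and 5185 scaled bp in WT A, B and C (limma adjusted p = 9.79e-06). On the earlier days KO1 had 177 bp at D2, and no other library of either genotype had a peak there. Windows on chromosomes 12 (from 111860001), 10 (62420001), 4 (118050001) and 9 (118460001) had no covered bp in any D0 or D2 library of either genotype. In each of these, WT D10 coverage was between 3088 and 7503 bp in every library and KO coverage was 0. The window on chromosome 4 had no peak in any mESC list. The other 9 of the 10 had a peak of the 12 and of the 72 hour list.

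Called windows mostly stood alone. Runs of 3 or more adjacent windows held 8.22% of the higher and 7.83% of the lower windows. The longest run was of 7 windows lower in KO on chromosome 1 (34270001 to 34340000), with 3122 scaled bp in KO1 and 6314 in KO2, against 25612, 31004 and 39969 in WT A, B and C. At D2 it had held 4410 bp in KO1 and 5409 in KO2, against 3250, 3280 and 3764 in WT. A run of 6 windows on chromosome 2 (76540001 to 76600000), around the KO-missing region above, held 841 bp in KO1 and 219 in KO2, against 25514, 28623 and 28475 in WT (median log2 difference -4.36). Next came 6 windows on chromosome 12 (111850001 to 111910000), with 1467 bp in KO1 and 3929 in KO2, against 29455, 34791 and 46174 in WT. Each of these WT D10 domains held far less 5hmC in all 5 D2 libraries, at most 5409 bp. Higher runs were at most 6 windows long, the longest on chromosome 18 (55100001 to 55160000), with 6775 bp in KO1 and 11193 in KO2, against 420, 1360 and 0 in WT.

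The lines were also fitted one by one. Set alone against WT, KO1 was higher in 5766 windows (22.4%) and lower in 2347 (9.13%), and KO2 was higher in 2851 (11.1%) and lower in 1193 (4.64%). Each such fit has 1 KO library, which is assumed to vary like the other groups. Directly compared, KO1 was higher than KO2 in 172 windows (0.669%) and lower in 80 (0.311%), but in 49 and 14 without WT B and in 113 and 47 without WT A. The spread in this comparison comes from the other groups, since each line has 1 library. Both lines lay on the same side of the WT mean in all 5916 higher and all 1839 lower windows, with median log2 differences of 2.41 (KO1) and 1.95 (KO2) in the higher and -2.25 (KO1) and -1.76 (KO2) in the lower ones; these windows were chosen on the mean of both lines.

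Regions held by WT cells and by a single KO line were counted next. Of regions with a D10 peak in all WT libraries, 5888 also had one in KO2 but not in KO1, against 1211 in KO1 but not in KO2. The KO2-shared regions had a 72 hour mESC peak in 25.2% of cases and a WT D2 peak in 53.3 ± 14.5% (SD, n = 3). The KO1-shared regions had a 72 hour mESC peak in 18.3% and a WT D2 peak in 81.2 ± 8.16% (SD, n = 3). The longest KO2-shared region, 5156 bp on chromosome 17 (84858427 to 84863582), had no D10 peak in KO1 and 1208 bp in KO2, against 5093, 5112 and 4949 bp in WT A, B and C, and the 72 hour mESC list covered 5118 bp of it. KO2 thus had a part of a domain that filled the region in WT. In the other 3 of the 4 longest, on chromosomes 10 (121040921), 6 (142345231) and 15 (75932829), KO2 had 484 to 1070 bp and WT libraries 2440 to 3716 bp.

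Peaks of a single KO line differed between the lines in how often they had been seen earlier. The 44441 regions with a D10 peak in KO1 alone had a D0 peak in 45.9 ± 13.7% and a D2 peak in 51 ± 7.1% of cases in WT (SD, n = 3), and 6.6% had none in any D0 or D2 library. The 35954 regions of KO2 alone had a D0 peak in 8.33 ± 3.47% and a D2 peak in 29.1 ± 7.96% of cases in WT (SD, n = 3), and 29.2% had none in any D0 or D2 library. Shared bp with the line's own earlier lists, at equal list length, were 30.4% with D0 and 38.8% with D2 for KO1, and 10.2% with D0 and 31% with D2 for KO2. KO1 at D10 therefore held more of the D0 pattern than KO2 did. With 1 library a line, neither list could be checked against a replicate of its own, and in KO2 the single-line regions ranked low in their list (median percentile 32.8, against 44 in KO1).

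Chromosome 5 set KO1 apart from all other libraries. It held 10.5% of KO1 and 4.29% of KO2 peaks, against 5.87, 5.54 and 6.42% in WT A, B and C. KO1 lay above and KO2 below every WT library, so the KO mean differed from WT by 1.44 points (two-sided exact permutation p = 0.7), and by -1.66 without KO1. The excess was as large on the earlier days: KO1 had 10.3% at D0 and 10.3% at D2, and KO2 had 5.56% and 4.76%. In bins of 10 Mb, KO1 was 1.39 to 3.3 times and KO2 0.529 to 1.3 times the WT D10 mean, so the excess ran along the whole chromosome. On the other chromosomes the share of peaks was 0.848 to 1.08 times the WT mean in KO1 and 0.926 to 1.1 times in KO2. Median fold enrichment on chromosome 5 was 5.04 in KO1, beside 5.1 on its other chromosomes. The number of copies of chromosome 5 was not tested.

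**Figure D4:**
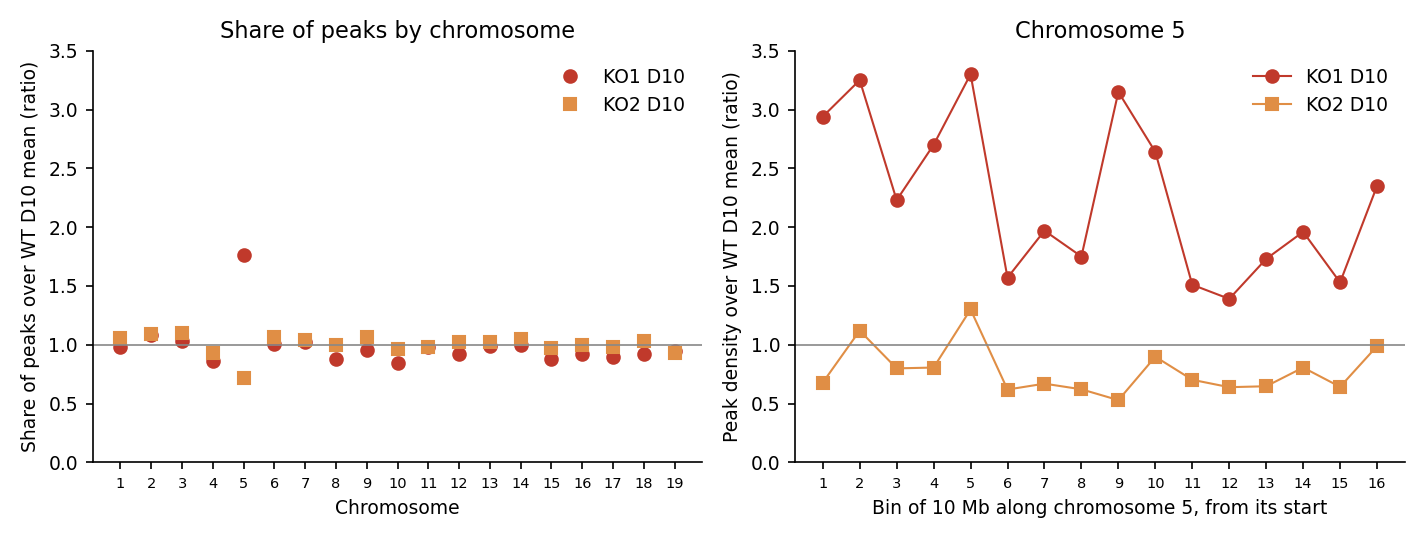
Left, share of D10 peaks on each chromosome (horizontal axis) in KO1 and KO2 as a ratio to the mean of the 3 WT libraries (vertical axis); right, peaks per 10 Mb bin of chromosome 5 relative to peaks elsewhere, as the same ratio. On chromosome 5 KO1 stands at 1.76, and above 1 in every bin (1.39 to 3.3), and KO2 at 0.721; on the other chromosomes both lines lie between 0.848 and 1.1.

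Of 16277 regions on chromosome 5, 1502 were KO-retained (9.23%) and 657 KO-missing (4.04%). KO-retained regions had a WT D2 peak in 80 ± 7.56% (SD, n = 3) and a 72 hour mESC peak in 1.07% of cases. KO-missing regions on chromosome 5 had a D2 peak in 33% of cases in KO1 and 3.81% in KO2, against 9.18 ± 8.01% in WT (SD, n = 3), and a 72 hour mESC peak in 37.7%. On the other chromosomes the KO1 share was 14.2%. Of chromosome 5 regions with a D10 peak in all WT libraries, KO1 had one in 56.3% and KO2 in 48.8%, so KO1 stood above KO2 here. With a D2 peak in all 3 WT libraries the shares were 96.5% in KO1 and 83.7% in KO2. With a D2 peak in 1 or 2 of them they were 56.9% in KO1 and 43.1% in KO2. Only with no WT D2 peak was KO1 lower, at 8.43% against 11.4% in KO2. KO1 alone held 7061 regions, 43.4% of those on chromosome 5 against 20.4% elsewhere, and KO2 alone held 774, 4.76% against 16.5% elsewhere. Of 1970 windows, 380 were higher (19.3%) and 79 lower (4.01%) in KO. In the fit of each line, KO1 was higher than WT in 754 (38.3%) and lower in 61 (3.1%), and KO2 was higher in 138 (7.01%) and lower in 164 (8.32%). KO1 was higher than KO2 in 83 (4.21%).

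The largest difference towards KO on chromosome 5 was at 102090001 to 102100000, with 3880 scaled bp in KO1 and 2810 in KO2, and all 3 WT libraries listed at 0 (limma adjusted p = 0.000112). At D2 it had 3536 bp in KO1 and 2739 in KO2, against 1883, 2132 and 2369 in WT A, B and C. The largest towards WT was at 114200001 to 114210000, listed at 0 in both KO lines, against 2553, 4979 and 5874 bp in WT A, B and C (limma adjusted p = 0.000114).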

How the data were processed

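Genomic DNA was sonicated, its 5hmC was tagged with an azide glucose and biotin, and captured DNA was amplified over 14 cycles, per the labels' protocols. Bowtie, SAMtools and MACS2 were used on mm9, per the submitters' processing notes, with no versions stated there. Every sample has a peak list of its own except the input. The columns deposited by the authors hold a score, a linear fold ratio over background, and p and q as -log10, per the MACS2 layout; these were used to rank or filter peaks of 1 list. Depth relative to the input was computed from the steps of the fold values.

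Peaks were merged into regions at 1 bp of overlap (Python 3.11.15, pandas 2.3.3, numpy 2.4.6). Shares have 95% Wilson intervals, and differences between 5 libraries were tested by two-sided exact permutation (scipy 1.17.1). Windows used all deposited peaks, each library scaled to the mean total outside chromosome 5; windows with a mean of at least 500 scaled bp over 15 pre-iPSC libraries entered limma 3.58.1 (R 4.3.3; trend, robust), in 6 groups, with a pseudocount of 200 bp and Benjamini-Hochberg adjustment at 0.05. The code was tested on simulated data. The contrasts KO D10 minus WT D2, KO D10 minus KO D2, KO D2 minus WT D2 and WT D10 minus WT D2 were added after the data were seen. Named windows are the 10 with the largest difference each way (2 each way on chromosome 5), called by limma and with no overlap between the groups. Named regions are the 8 longest KO-retained and KO-missing ones and the 4 longest of each single-line class. Members and lists were chosen with earlier results of these data known. Gene lists needed an mm9 annotation and were not analysed here. KO lines were taken as pairs across days from their titles: their deviations correlated by 0.21 to 0.31 between days, which with 2 lines are mirror values, and those of WT letters by -0.05 to 0.03.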

Additional observations from a re-analysis of the deposited data

Results flagged for a closer look

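The effect of KO on 5hmC coverage differed between D10 and D2 by the interaction test (limma, adjusted p under 0.05): outside chromosome 5, KO minus WT was greater at D10 than at D2 in 2156 windows and smaller in 431. The coverage filter, a mean over all pre-iPSC libraries, favoured windows covered at D0 or D2, which bears on this split. Between the KO lines at D10, outside chromosome 5, KO1 was higher than KO2 in 172 windows and lower in 80, and on chromosome 5 KO1 was higher in 83. Each line has 1 D10 library, so this comparison takes its spread from the groups with replicates, and without WT B the windows outside chromosome 5 were 49 and 14.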

How the results depend on the processing

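Named windows kept direction and call in all 344 alternative values, and 89 of 96 alternative presence values of named regions did not move. Shares and peak numbers kept their direction under every alternative run; the chromosome 5 share turned to -1.66 without KO1 and was 4.54 at most (without KO2).

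Leaving out 1 D10 library gave 24291 to 68615 KO-retained regions (61123 without KO1, 68615 without KO2) and 11959 to 20410 KO-missing ones (16661 without KO2, 20410 without WT C). KO-retained regions then had a WT D2 peak in 51.7 to 85.9% and a 72 hour mESC peak in 0.478 to 1.13%, and KO-missing ones in 13.2 to 28.4% and 25.1 to 29.6%. With the strongest peaks alone these were 9191 KO-retained regions, of which 77.6% (WT D2) and 0.914% (72 hours), and of KO-missing ones 7.96% (WT D2) and 32.7% (72 hours). With -log10 q of at least 5 there were 6547 KO-missing regions, and the 72 hour shares were 1.05% (KO-retained) and 35.4% (KO-missing).

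Windows higher and lower in KO, 5916 and 1839 as reported, numbered 3124 and 711 with the strongest peaks, 8965 and 345 unscaled, 3262 and 3623 relative to the median window (balance -361), 244 and 55 at a mean of at least 2000 bp, and 969 and 3085 in the D10 libraries alone (balance -2116). Lower windows numbered 1174 with 50 bp as pseudocount, 6510 over every window and 3358 without the D0 libraries (an alternative chosen after seeing the data). Leaving out 1 library gave 2311 to 6384 higher and 910 to 1964 lower windows (2311 and 912 without KO1, 1027 lower without WT B, 910 without WT C). With the strongest peaks KO1 had 3670 higher and 1249 lower, KO2 1649 and 667, KO1 against KO2 517 and 264, and the interaction 1302 and 206. Without 1 WT library KO2 had 2809 to 3796 higher and 763 to 1043 lower; KO1 against KO2 had 49 to 244 higher and 14 to 116 lower (49 and 14 without WT B, 113 and 47 without WT A). The interaction had 549 to 3033 positive and 124 to 955 negative windows (549 and 214 without KO1, 955 negative without KO2, 161 without WT B, 124 without WT C). With the line as a replicate block, 5914 windows were higher and 1844 lower, and the interaction gave 2574 and 554; outside chromosome 5 the block moved none of these counts by over 1.5 times, and on it the positive interactions were 163 with the block and 78 without. The causes of these shifts were not tested beyond the samples or windows that each setting leaves out.

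Depth overlaps between the groups but is known only relative to the input, and the absence of a peak says only that none passed the authors' threshold.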

Other observations

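KO-retained regions were more often close to one another than KO-missing ones: 51.1% had a region of their own class within 10 kb, against 36% of KO-missing regions and 41.6% of regions with a peak in all 5 libraries. The classes differ in number, which bears on such distances, and the part of that in the difference was not tested. In the distal 10% of chromosomes, where 16.7% of all D10 regions lay, were 15.9% of KO-retained and 19.3% of KO-missing regions, and 22.7% of those in all 5 libraries.

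Chromosomes 2, 3 and 6 held a larger share of peaks in both KO lines than in any WT library, and chromosomes 4 and 10 a smaller one. Chromosomes 11 and 19 also held a smaller share, but only with chromosome 5 counted in the totals. On chromosome 4 the shares were 6.01% in KO1 and 6.48% in KO2, against 6.91, 7.06 and 7.01% in WT A, B and C. On chromosome 2 they were 7.93% in KO1 and 8.05% in KO2, against 7.37, 7.4 and 7.28%. Shares add up to a whole, so the chromosome 5 excess of KO1 lowers its share on every other chromosome. With chromosome 5 left out of the totals, KO1 was not below all WT libraries on chromosomes 11 and 19.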
